A study of Mus musculus with 6 samples.

Results

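Glycolysis, the handling of pyruvate and the pentose phosphate pathway were followed through 35 listed genes, of 21761 genes in the count table, in sorted LT-HSCs (long-term haematopoietic stem cells) with and without IMP1. The members were taken by gene symbol from a list of glucose transporters, glycolytic enzymes, lactate genes, pyruvate dehydrogenase genes and pentose phosphate enzymes, and all 35 were found in the table and passed the filter on low counts. IMP1 is an RNA-binding protein encoded by Igf2bp1 that is made mainly in fetal tissues. The Control group had the genotype Rosa26 +/+;Mx1-Cre tg/+ and the IMP1 group Rosa26 I/+;Mx1-Cre tg/+, where I is a conditional IMP1 knock-in, with 3 libraries each. Mx1-Cre, driven by an interferon-inducible promoter and carried by both groups, was switched on by injections of poly(I:C), a synthetic RNA that triggers an interferon response. The donor marrow had the CD45.2 allotype and the lethally irradiated CD45.1/2 hosts kept their own stroma, so that the knock-in was limited to transplanted cells. Sorting took 200 donor cells per library with the surface phenotype LSK CD150+ CD48- CD34-, 8 weeks after the last injection. The age and sex of the mice were not given in the labels.

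Glycolysis splits glucose into pyruvate and yields ATP without oxygen, and pyruvate then either becomes lactate or enters mitochondria through pyruvate dehydrogenase, which pyruvate dehydrogenase kinases switch off. The pentose phosphate pathway branches off after the first step and provides NADPH and ribose. LT-HSCs at rest are known for their reliance on glycolysis, and pyruvate dehydrogenase kinases have been described as part of that state.

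The Control libraries held 25749898 to 27338450 counts and the IMP1 libraries 50220629 to 67083116, so that depth and genotype cannot be told apart, and no label gave a batch. Igf2bp1 was at 0, 0 and 0.0400 CPM in Control 1 to 3 and at 29.3, 30.1 and 38.8 CPM in IMP1 1 to 3. The marker genes of the sorted cells were present in all libraries, with a summed level over 10 LT-HSC genes of 1577 to 1788 TMM-normalised CPM (reads scaled to a common library size, with trimmed-mean factors) in Control and 2050 to 2286 CPM in IMP1 cells. Cd34, whose protein was gated out, was read at 263 to 317 CPM in the Control libraries and at 141 to 212 in the IMP1 libraries. The other gated-out genes in the list were low and overlapped, with Cd48 at 7.61 ± 9.13 and 12.7 ± 12.5 CPM and Flt3 at 10.5 ± 2.37 and 18.7 ± 11.8 CPM. Markers of other cells and of dividing cells differed between libraries. Of 8 proliferation genes, 8 had positive fold changes and their sum ranged over 263 to 358 CPM for Control and 391 to 760 for IMP1. Neutrophil and monocyte genes summed to 274 to 318 CPM in Control and to 868, 508 and 230 CPM in IMP1 1, 2 and 3. They did not move together. Of the 8 tested, 5 had positive fold changes (Ly6c2, S100a8, S100a9, Ngp and Camp) and 3 negative ones (Elane, Mpo and Prtn3). The 9 erythroid genes in the table summed to 49.04 to 81.6 CPM in Control, 394 CPM in IMP1 1 and 109 to 164 CPM in the other IMP1 libraries. B cell genes summed to 71.6 to 85.4 CPM in Control and 79.9 to 147 CPM in IMP1 libraries, with Pax5 at 0 in every library. The highest sum was that of IMP1 2, where Igll1 was at 33.2, Cd79a at 16.9 and Ebf1 at 14.2 CPM, each under 0.2 CPM in the other 5 libraries. T and NK cell genes summed to 208 to 398 and 75.4 to 99.8 CPM, nearly all of it Nkg7, with Cd3g and Gzmb at 0. Megakaryocyte genes summed to 348 to 729 and 315 to 528 CPM, and mast cell and basophil genes to 36.0 to 44.9 and 2.45 to 14.7 CPM. The part of these cells in the results below was not tested. With all libraries thinned to 25749898 counts, 29 of the 34 listed genes then tested had negative fold changes. The 34 had a median of −0.37, where the median of all 12552 genes tested in that fit was 0.02. None of the 34 passed an adjusted p of 0.05 in edgeR (0 of 34), where 0.247% of all tested genes did.

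Most messenger RNAs of glucose breakdown had lower values in IMP1 cells, and no single gene passed the adjusted threshold. The 35 genes summed to 8486, 9249 and 8640 CPM in Control 1, 2 and 3 and to 6447, 5767 and 6236 CPM in IMP1 1, 2 and 3. Every IMP1 library therefore lay under every Control library. Of the 35 fitted log2 fold changes (IMP1 over Control), 29 were negative, with a median of −0.34, where 47.8% of all 12807 tested genes were negative and their median was 0.03. No member passed a Benjamini-Hochberg adjusted p of 0.05 in edgeR's quasi-likelihood test (0 lower and 0 higher), where 0.141% of all tested genes were called lower and 0.0703% higher. At an unadjusted p under 0.05, 13 members were lower and 2 higher, where all tested genes gave 7.63% lower and 6.67% higher. DESeq2 called 9 members lower and 0 higher at an adjusted p of 0.05, where it called 3.12% of the genes it tested lower and 2.43% higher. At an adjusted p under 0.1 edgeR had 5 members lower (Aldoa, Gapdh, Pkm, Ldha and Taldo1), where 1.08% of all tested genes were. With a stricter filter on low counts 2 members (Gapdh and Pkm) passed 0.05 as lower, where 0.327% of genes did, and with edgeR's newer dispersion method the same 2, where 0.281% of genes were lower and 0.102% higher. The 9 in DESeq2 were Ldha, Pkm, Gapdh, Aldoa, Taldo1, Eno1, Gpi1, Pgk1 and Tkt. For 15 members every Control library exceeded every IMP1 library, and for 2 the reverse held, against 11.1% and 10.7% of all tested genes. With library totals in place of TMM factors, 28 members were negative and the median was −0.24. In bulk RNA of sorted cells, fewer cells of a type and less RNA per cell cannot be told apart, and a CPM is a share of the library.

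**Figure D1:**
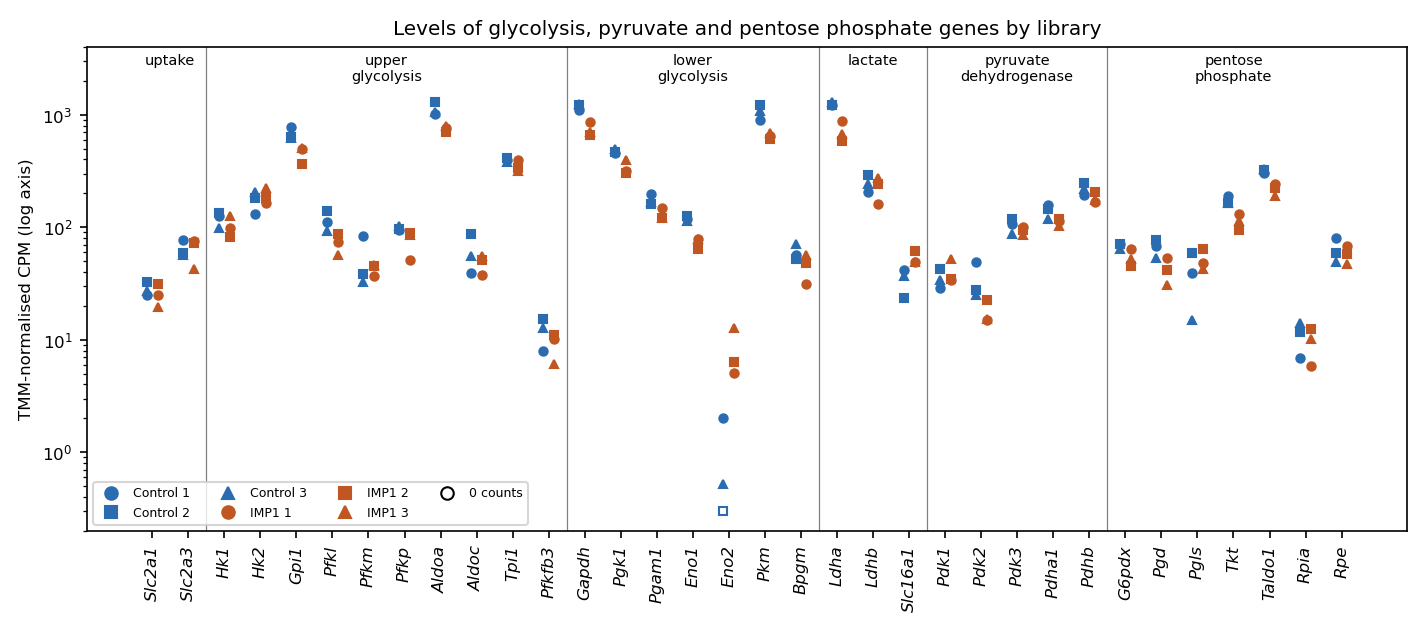
TMM-normalised CPM (log axis) of 34 of the 35 genes in each library, grouped by step, with Control in blue, IMP1 in orange and a marker shape per replicate number; the open square is a library with 0 counts, drawn at the foot, and Slc16a3, at or under 1.36 CPM in every library, is left out. Ldha, Gapdh, Aldoa and Pkm stand highest, and their 3 IMP1 libraries lie under all 3 Control libraries.

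The most abundant genes gave much of the difference in the sum. The 4 most abundant members by CPM, Ldha, Gapdh, Aldoa and Pkm, made up 50.04% to 53.9% of the summed level in Control and 44.1% to 48.9% in IMP1 libraries. Without them, the other 31 members still summed to 3983 to 4294 CPM for Control and 3221 to 3385 for IMP1. Among 15 members with a mean of at least 100 CPM, 14 were negative with a median of −0.48, and 9 were lower at an unadjusted p under 0.05. Abundant genes as a whole also leaned lower, since of the 2070 tested genes at this level 65.7% were negative, with a median of −0.13, and 22.9% were lower and 8.12% higher at that p. Of the 15 members at this level, DESeq2 called 8 lower, and 10 were without overlap on the low side. For these counts the shares of all genes at this level were not computed. The 20 members under 100 CPM had a median of −0.23, with 15 negative.

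**Figure D2:**
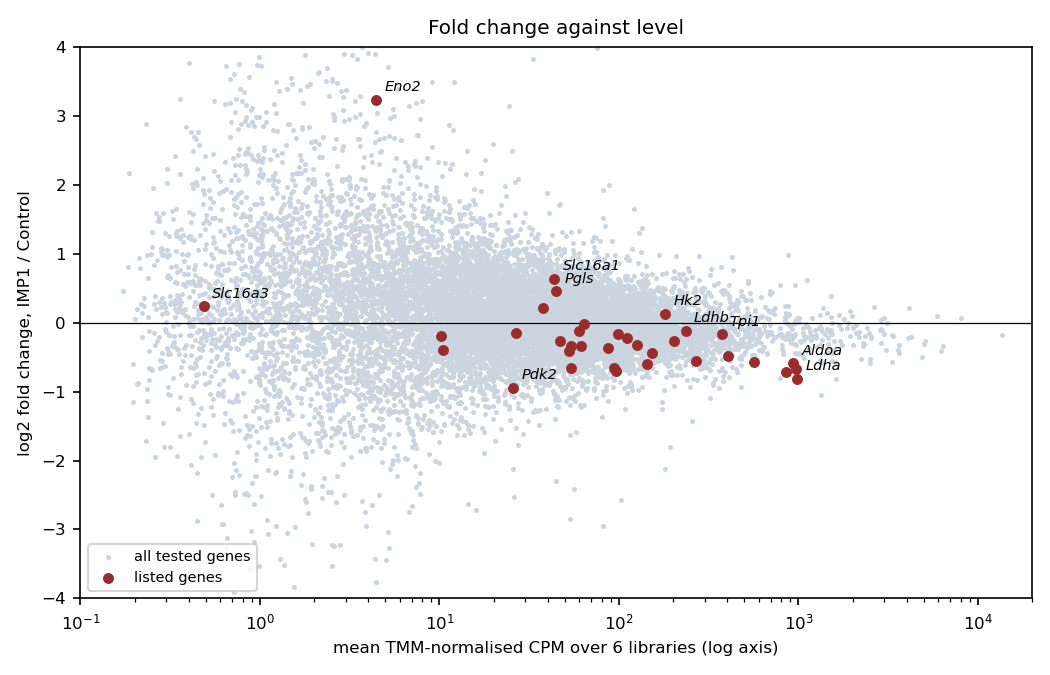
Log2 fold change of IMP1 over Control against the mean TMM-normalised CPM of the 6 libraries (log axis) for all tested genes (grey; those beyond 4 log2 units are not drawn) and the 35 listed genes (red). Most listed genes above 100 CPM lie below 0, and Eno2 stands at 3.23.

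Promoter sequences are shown for the 4 members with the lowest p, since MYC and the hypoxia-inducible factors are known to bind E-box and hypoxia-response letters at glycolytic genes. Each is the 250 bases before a transcription start in RefSeq on GRCm38.p6, read along the gene's strand, and where a gene has several starts the window with most matches was chosen. Pkm, pyruvate kinase, is at chr9:59656977-59657226 (plus strand), Gapdh, glyceraldehyde-3-phosphate dehydrogenase, at chr6:125165774-125166023 (minus), Ldha, lactate dehydrogenase A, at chr7:46845554-46845803 (plus), and Aldoa, aldolase A, at chr7:126799255-126799504 (minus). Capitals mark the E-box CACGTG and the hypoxia-response core in its spellings ACGTG and GCGTG, on either strand, so that CACGT and CACGC are the reverse forms.
Pkm: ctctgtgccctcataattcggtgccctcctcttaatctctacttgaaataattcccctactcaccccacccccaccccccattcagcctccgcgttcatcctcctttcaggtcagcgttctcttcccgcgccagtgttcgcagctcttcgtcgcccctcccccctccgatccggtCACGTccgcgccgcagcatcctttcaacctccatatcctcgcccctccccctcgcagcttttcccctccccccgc
Gapdh: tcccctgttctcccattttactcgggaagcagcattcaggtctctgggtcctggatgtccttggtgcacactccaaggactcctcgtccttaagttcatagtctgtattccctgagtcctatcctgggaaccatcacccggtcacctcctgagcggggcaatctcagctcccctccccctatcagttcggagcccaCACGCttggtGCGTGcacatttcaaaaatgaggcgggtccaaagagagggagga
Ldha: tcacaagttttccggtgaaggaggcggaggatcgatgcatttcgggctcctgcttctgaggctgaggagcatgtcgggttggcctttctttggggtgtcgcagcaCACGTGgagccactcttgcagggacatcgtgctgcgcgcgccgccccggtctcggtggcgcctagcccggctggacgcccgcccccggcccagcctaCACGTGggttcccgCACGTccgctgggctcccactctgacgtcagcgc
Aldoa: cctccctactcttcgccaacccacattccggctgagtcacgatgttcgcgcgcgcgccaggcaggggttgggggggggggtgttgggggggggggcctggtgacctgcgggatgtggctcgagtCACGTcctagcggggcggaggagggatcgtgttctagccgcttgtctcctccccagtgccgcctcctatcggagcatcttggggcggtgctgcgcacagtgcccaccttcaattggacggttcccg
The Ldha window held 2 CACGTG, each of which contains ACGTG on both strands, and 1 further ACGTG. The bases just after the start of that window were not found in a GENCODE M21 transcript of Ldha. The other Ldha window (chr7:46846832-46847081) held 0 CACGTG, 0 ACGTG and 1 GCGTG, and the bases after its start were found in such a transcript. The Gapdh window held 2 GCGTG, and the Pkm and Aldoa windows 1 ACGTG each. The other Pkm window (chr9:59656326-59656575) had 0 matches, and the windows of the 3 Aldoa starts had 0, 1 and 1. Of the 34 members with a promoter in the table, 29 had ACGTG or GCGTG in at least 1 window and 5 had CACGTG. By window, ACGTG or GCGTG was found in 75.5% of the 49 member windows, 54.8% of the 12815 windows of tested genes and 38.6% of all 32851 windows of the table. CACGTG was found in 10.2%, 8.22% and 6.02% of these. A match describes letters and says nothing of binding.

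The messenger RNAs of the glucose transporters did not differ detectably. Slc2a1, which encodes the glucose transporter GLUT1, was read at 25.04, 32.3 and 26.9 CPM in Control 1 to 3 and at 24.96, 31.3 and 19.5 CPM in IMP1 1 to 3. Slc2a3, encoding the high-affinity transporter GLUT3, was read at 77.7, 59.5 and 56.9 CPM and at 75.4, 73.1 and 42.4 CPM. The groups overlapped for both (log2 fold changes −0.15, SE 0.28, and −0.02, SE 0.26). The adjusted p was 0.862 for Slc2a1 and 0.980 for Slc2a3.

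In the upper part of glycolysis, 9 of 10 members had negative fold changes, with a median of −0.35, and 3 were lower at an unadjusted p under 0.05. At that p 7.63% of all tested genes were lower, and 22.9% of those with a mean of at least 100 CPM. Aldoa, which splits fructose-1,6-bisphosphate, was read at 1021, 1294 and 1058 CPM in Control 1 to 3 and at 765, 697 and 786 CPM in IMP1 1 to 3. All 3 IMP1 libraries lay under all 3 Control libraries (1124 ± 148 against 749 ± 46.5 CPM, SD, n = 3; log2 fold change −0.59, SE 0.11, edgeR adjusted p = 0.0760). Gpi1, which turns glucose-6-phosphate into fructose-6-phosphate, was read at 780, 632 and 619 CPM in Control and 495, 364 and 506 CPM in IMP1 libraries, again without overlap (−0.57, SE 0.15, adjusted p = 0.145). Pfkl, the liver-type subunit of phosphofructokinase, the main control point of the pathway, was read at 111, 138 and 93.2 CPM and at 74.5, 86.9 and 56.9 CPM (−0.65, SE 0.22, adjusted p = 0.242). Its highest IMP1 library lay under its lowest Control library.

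The hexokinases, which trap glucose in the cell, went different ways without passing. Hk1 was read at 126, 133 and 97.7 CPM in Control and 97.5, 81.1 and 127 CPM in IMP1 libraries. Hk2, the isoform known as induced by hypoxia and growth signals, was read at 131, 184 and 205 CPM and at 163, 182 and 223 CPM, the 1 positive fold change of this group (0.13, SE 0.19, adjusted p = 0.821). Both sets of values overlapped. Tpi1, triose-phosphate isomerase, stood at 394 ± 14.6 against 351 ± 42.8 CPM (−0.17, SE 0.11, adjusted p = 0.553). The other subunits of phosphofructokinase, the muscle-type Pfkm (51.4 ± 27.8 against 42.8 ± 5.37 CPM) and the platelet-type Pfkp (97.7 ± 4.14 against 75.6 ± 21.0 CPM), Aldoc (60.6 ± 24.2 against 48.0 ± 9.01 CPM) and Pfkfb3, which makes the activator fructose-2,6-bisphosphate (11.96 ± 3.71 against 9.07 ± 2.68 CPM), had fold changes of −0.40 to −0.27 that did not pass. Pfkp did not overlap between groups, with its 3 Control libraries within 94.5 to 102 CPM.

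In the lower part, 6 of 7 members were negative, with a median of −0.48, and 5 were lower at an unadjusted p under 0.05. The shares of all tested genes and of those with a mean of at least 100 CPM were 7.63% and 22.9%. Pkm, which makes pyruvate, was read at 897, 1218 and 1074.5 CPM in Control 1 to 3 and at 650.04, 603 and 681 CPM in IMP1 1 to 3. The groups did not overlap (1063 ± 161 against 645 ± 39.3 CPM; −0.72, SE 0.12, adjusted p = 0.0614). Gapdh was read at 1108, 1212 and 1233 CPM and at 863, 664 and 705 CPM. Its 2 groups were apart as well (1184 ± 67.1 against 744 ± 105 CPM; −0.67, SE 0.11, adjusted p = 0.0614). Among annotated transcripts Gapdh has 73 near-identical copies (at least 95% identity over at least 500 bases), of which 1 was in the table, with 0 counts. No source used here says how the authors' counting treated reads shared with copies. Pfkp and Rpe share exact sequence with the neighbouring genes Pitrm1 and Kansl1l, so their values carry the same uncertainty. By the same rule Pkm, Ldha, Pgk1, Gpi1, Pgam1, Ldhb and Pdhb each have 1 or 2 near-identical copies. None of these copies was in the table, and the values of these genes carry the uncertainty too. Pgk1, phosphoglycerate kinase and the first step that returns ATP, was read at 455, 469 and 499 CPM and at 315, 306 and 396 CPM without overlap (−0.48, SE 0.12, adjusted p = 0.130). Pgam1, phosphoglycerate mutase, stood at 175 ± 19.5 against 129 ± 15.6 CPM, its groups apart by a narrow margin (−0.44, SE 0.15, adjusted p = 0.240). Bpgm, which makes 2,3-bisphosphoglycerate and is best known from red cells, stood at 59.9 ± 10.04 against 45.2 ± 12.8 CPM with overlap (−0.41, adjusted p = 0.542).

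The enolases call for care. Eno1, the ubiquitous form, was read at 119, 127 and 113 CPM in Control and 79.2, 63.5 and 78.4 CPM in IMP1 libraries (−0.70, SE 0.15, adjusted p = 0.101). Eno1b, a copy with 99.48% identity over 1736 aligned bases, took 66.3% of the counts of the pair, so reads of Eno1 may be split between them. Summed, the pair had 344 ± 15.8 CPM for Control and 222 ± 16.9 for IMP1, without overlap (−0.63, SE 0.11, adjusted p = 0.0627), a sum chosen after the values were seen. Eno2, the enolase known from neurons, was the member with the largest positive fold change. It had 54, 0 and 13 counts in Control 1 to 3 and 321, 437 and 662 in IMP1 1 to 3, or 2.03, 0 and 0.520 CPM and 5.04, 6.30 and 12.7 CPM (3.23, SE 1.36, unadjusted p = 0.0441, adjusted p = 0.332). It was low in both groups, and every IMP1 library exceeded every Control library.

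The lactate genes divided. Ldha, which turns pyruvate into lactate, was read at 1219, 1232 and 1292 CPM in Control 1 to 3, a narrow band, and at 873, 581 and 678 CPM in IMP1 1 to 3. It had the most negative fold change among members above 100 CPM (1248 ± 39.03 against 711 ± 149 CPM; −0.81, SE 0.14, adjusted p = 0.0703), with no overlap. Ldhb, the subunit that favours the return of lactate to pyruvate, was read at 204, 290 and 240 CPM and at 161, 243 and 273 CPM, fully overlapping (−0.12, SE 0.21, adjusted p = 0.859). Slc16a1, the lactate and pyruvate carrier MCT1, was read at 41.6, 23.6 and 37.1 CPM in Control and 48.7, 61.04 and 49.5 CPM in IMP1 libraries. It was higher in each IMP1 library than in any Control library (0.64, SE 0.26, unadjusted p = 0.0414, adjusted p = 0.322). Slc16a3, the lactate exporter MCT4, was at most 1.36 CPM in any library, with 9, 0 and 25 counts in Control and 87, 4 and 8 in IMP1 libraries.

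**Figure D3:**
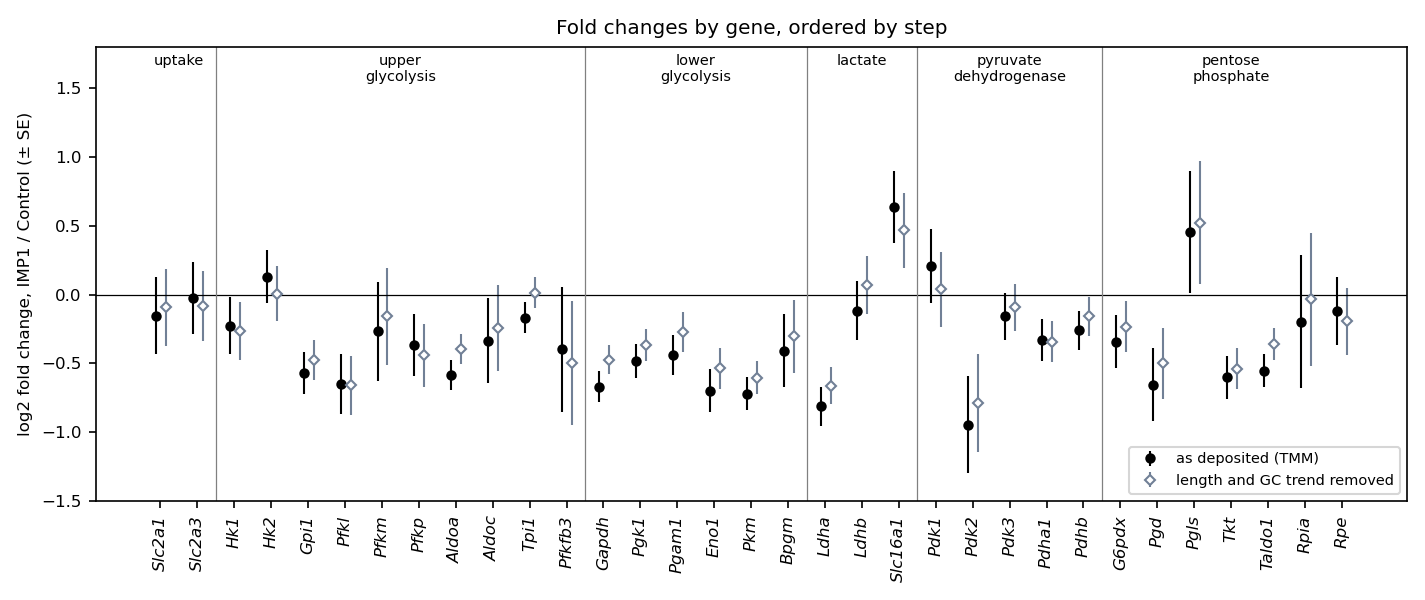
Log2 fold change of IMP1 over Control with its standard error for 33 members ordered by step, as fitted on the deposited counts (filled circles) and after removal of the length and GC trend (open diamonds); Eno2 and Slc16a3 are left out for their low counts. Ldha, at −0.81, and Pdk2 stand lowest, Slc16a1 stands highest, and removing the trend moved Ldha to −0.66 and Gapdh to −0.47.

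At the gate into mitochondria, 4 of 5 members were negative, with a median of −0.26. Pdha1, which encodes the E1 alpha subunit of pyruvate dehydrogenase, was read at 157, 144 and 119 CPM in Control and 114, 117 and 103.1 CPM in IMP1 libraries (−0.33, SE 0.15, adjusted p = 0.377). Pdhb, the E1 beta subunit, was read at 192, 248 and 218 CPM and at 168, 207 and 174 CPM (−0.26, SE 0.14, adjusted p = 0.466). Pdha1 was just without overlap, while Pdhb overlapped. Of the kinases that switch the complex off, Pdk2 was read at 49.0, 27.8 and 25.04 CPM in Control and 14.9, 22.7 and 15.3 CPM in IMP1 libraries. This was the most negative fold change of all 35 members (−0.94, SE 0.35, unadjusted p = 0.0276, adjusted p = 0.284), with Control 1 above the other Control libraries. Without Control 1 the Pdk2 fold change was −0.58. Members more negative in that fit included Pkm (−0.83), Ldha (−0.83), Gapdh (−0.72), Eno1 (−0.70), Pfkl (−0.67), Aldoa (−0.65), Pgd (−0.63) and Taldo1 (−0.59). Pdk1, known as a target of hypoxia-inducible factors, was read at 28.9, 42.2 and 34.0 CPM and at 33.6, 34.97 and 52.6 CPM (0.21, SE 0.27, adjusted p = 0.793). Pdk3, the most abundant kinase per kilobase, stood at 104 ± 16.2 against 93.3 ± 8.42 CPM (−0.16, adjusted p = 0.734).

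In the pentose phosphate pathway, 6 of 7 members were negative, with a median of −0.34, and the enzymes of the non-oxidative branch that move carbon back to glycolysis had the lowest p. Taldo1, transaldolase, was read at 305, 324 and 331 CPM in Control 1 to 3 and at 240.3, 225 and 189 CPM in IMP1 1 to 3, without overlap (320 ± 13.4 against 218 ± 26.4 CPM; −0.55, SE 0.12, adjusted p = 0.0991). Tkt, transketolase, was read at 189, 164 and 163 CPM and at 131, 94.6 and 115 CPM, without overlap (−0.60, SE 0.16, adjusted p = 0.144). Rpia and Rpe, the isomerase and epimerase of ribulose-5-phosphate, stood at 10.9 ± 3.64 against 9.49 ± 3.37 CPM and 62.8 ± 16.3 against 57.7 ± 10.8 CPM, overlapping. In the oxidative branch, which makes NADPH, G6pdx, the glucose-6-phosphate dehydrogenase and first enzyme, was read at 70.4, 70.4 and 64.2 CPM and at 63.6, 45.4 and 52.6 CPM (−0.34, SE 0.19, adjusted p = 0.483). Its highest IMP1 library lay just below its lowest Control library. Pgd, which also makes NADPH, stood at 66.4 ± 12.4 against 42.2 ± 11.5 CPM (−0.65, SE 0.26, unadjusted p = 0.0367, adjusted p = 0.309), its groups overlapping by less than 1 CPM. Pgls, the lactonase between them, was the exception in sign at 37.5 ± 21.8 against 51.5 ± 10.9 CPM, and Control 3 at 15.001 CPM stood far under the other Control libraries (0.46, SE 0.44, adjusted p = 0.702).

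Several of these enzymes exist as paralogues, and their shares in the family were computed from levels per kilobase of the longest coding transcript. Ldha made up 78.6% ± 2.99 of Ldha and Ldhb in Control and 69.0% ± 9.22 in IMP1 cells (SD, n = 3), with 81.1%, 75.3% and 79.4% in Control 1 to 3 and 79.6%, 63.2% and 64.1% in IMP1 1 to 3. IMP1 1 lay within the Control range (exact permutation p = 0.3, two-sided). Eno1 made up 98.8% to 100% of Eno1 and Eno2 in Control and 89.5% to 95.6% in IMP1 libraries, the 1 share without overlap (exact permutation p = 0.1, the smallest that 3 against 3 allow). Counts of Eno1b were not part of that share. Pdk2 made up 21.0% ± 6.28 of the 3 kinases in Control and 13.1% ± 2.97 in IMP1 cells (exact permutation p = 0.2), and Pdk3 69.3% ± 4.34 and 73.8% ± 4.28. Hk1 made up 47.3% ± 8.71 of the hexokinases in Control and 40.8% ± 3.74 in IMP1 cells (exact permutation p = 0.3), a difference of −6.50 points that was −2.42 without Control 1 and −11.1 without Control 3. The Ldha difference of −9.66 points was −15.0 without IMP1 1, and the Pdk2 difference of −7.94 points was −4.41 without Control 1. Of the phosphofructokinase subunits, Pfkl made up 42.6% ± 7.09 in Control and 37.3% ± 7.60 in IMP1 cells, Pfkp 33.3% ± 6.41 and 34.3% ± 6.27, and Pfkm 24.1% ± 9.91 and 28.4% ± 2.48. Aldoa held 97.2% ± 0.750 and 96.6% ± 0.674 of the aldolases. Over the 12 shares computed no adjusted p was under 0.667.

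**Figure D4:**
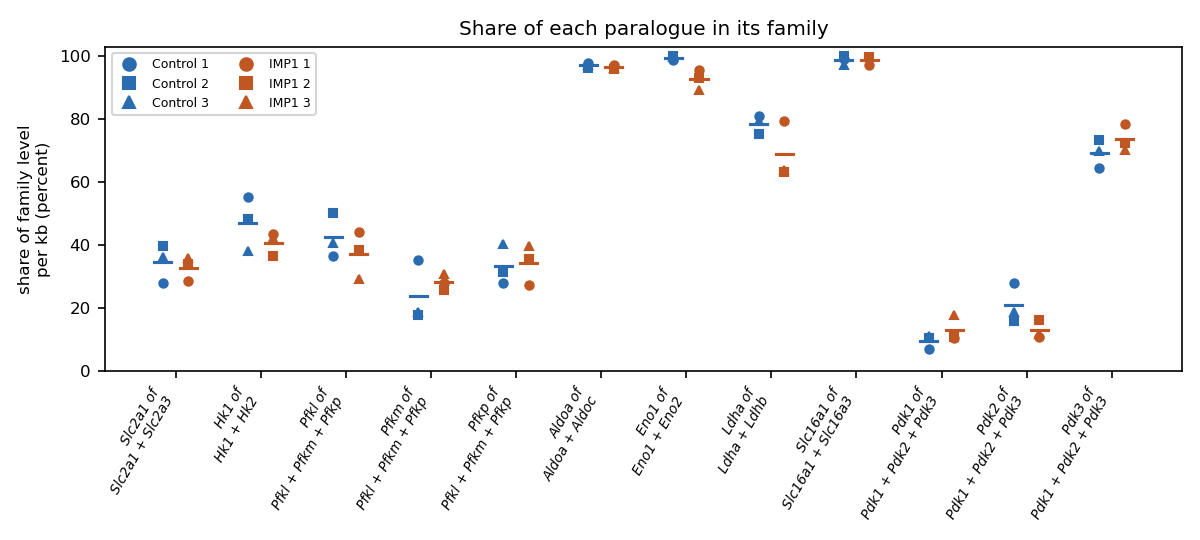
Share of each paralogue in the summed level per kilobase of its family, in percent, per library (Control blue, IMP1 orange, a marker shape per replicate number), with the group mean as a line. The Eno1 share is the 1 in which the 3 IMP1 libraries lie apart from the Control libraries; the Ldha share of IMP1 1 lies within the Control range.

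The levels per kilobase give the order of the pathway in Control cells. Gapdh (834 ± 47.2 CPM per kb), Aldoa (726 ± 95.5), Ldha (687 ± 21.5) and Pkm (437 ± 66.1) led, followed by Pgk1 (260 ± 12.2), Tpi1 (245 ± 9.06), Taldo1 (235 ± 9.81) and Gpi1 (235 ± 31.0). By library, Aldoa (659 to 835 CPM per kb) overlapped with Gapdh (780.1 to 868) and with Ldha (672 to 712), while Gapdh and Ldha did not overlap. In IMP1 cells Gapdh (524 ± 74.1 CPM per kb), Aldoa (484 ± 30.02) and Ldha (392 ± 81.9) led in the same order of means, and each overlapped with the other two by library. Among the lower levels were Slc2a1 at 8.62 ± 1.17, Slc16a1 at 7.71 ± 2.11, Pdk1 at 6.75 ± 1.30 and Pfkfb3 at 2.49 ± 0.773 CPM per kb in Control.

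Other genes of the same pathways were read alongside. Of 45 further genes, among them the remaining isoforms, pyruvate dehydrogenase subunits and phosphatases and the mitochondrial pyruvate carrier, 32 were tested. Of these, 21 were negative, with a median of −0.25, where 47.8% of all tested genes were negative. None passed the adjusted threshold in edgeR (0 of 32), where 0.141% of all tested genes were called lower and 0.0703% higher. At an unadjusted p under 0.05, 2 were lower and 3 higher, where all tested genes gave 7.63% and 6.67%. DESeq2 called 1 (Mpc1) lower and 0 higher, where it called 3.12% and 2.43% of the genes it tested. Dlat, the E2 subunit of pyruvate dehydrogenase, was among the lower (42.3 ± 10.1 against 26.9 ± 1.84 CPM) and Pgp, a phosphoglycolate phosphatase, among the higher (7.53 ± 1.79 against 15.3 ± 4.53 CPM), both named after their values were seen. Mpc1, a subunit of the mitochondrial pyruvate carrier, was read at 154, 186 and 215 CPM in Control 1 to 3 and at 119, 112 and 90.5 CPM in IMP1 1 to 3, without overlap (−0.79, adjusted p = 0.0991). Dld, the E3 subunit that pyruvate dehydrogenase shares with other complexes, was higher, at 129, 116 and 141 CPM against 162, 190 and 154 CPM (0.39, adjusted p = 0.273). Pfkfb2, a relative of Pfkfb3, was read at 65.6, 54.9 and 71.1 CPM and at 85.3, 78.5 and 104 CPM (0.48, adjusted p = 0.297). Dld and Pfkfb2 each had all IMP1 libraries above all Control libraries. Of the 32 tested genes, 3 were without overlap on the low side and 3 on the high side. Among all tested genes these shares were 11.1% and 10.7%. The 13 untested genes, which include some but not all of the liver and testis isoforms, were at most 4.52 CPM in any library. That value was Pklr, the pyruvate kinase of liver and red cells, in IMP1 1, the library with the highest erythroid sum, and Pklr was at 0 in the other 5.

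The lower values were read in all 3 IMP1 libraries. Each of IMP1 1, 2 and 3 lay below the Control mean for 28 of the 35 members, and below the lowest Control library for 22, 19 and 23. Among the 15 members without overlap on the low side, IMP1 2 was the lowest IMP1 library for 9, IMP1 3 for 4 and IMP1 1 for 2. Without IMP1 1, the library with the highest erythroid, neutrophil and proliferation sums, the median of the tested members was −0.27, and without IMP1 2 it was −0.39. No member passed the adjusted threshold in any of the 6 fits that left out a library, where 0% to 0.0155% of all tested genes did. In these fits 9 to 14 members were lower at an unadjusted p under 0.05, where 5.85% to 7.61% of all tested genes were.

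The fit was repeated after taking out, library by library, a loess trend on GC content and transcript length. In this fit 27 of the 35 members were negative with a median of −0.27, where 49.3% of all tested genes were negative. At an unadjusted p under 0.05, 11 members were lower, where 6.75% of all tested genes were. None passed after adjustment (0 of 35), where 0.102% of all tested genes did. Ldha then stood at −0.66, Pkm at −0.60, Gapdh at −0.47, Aldoa at −0.40 and Tkt at −0.54, while Tpi1, at 0.01, and Ldhb, at 0.07, no longer had a negative sign.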

How the data were processed

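RNA of 200 sorted cells per library was amplified as full-length cDNA with a SMARTer kit, without molecular identifiers, per the labels' protocols. The authors deposited whole-number read counts per gene. TopHat2 2.0.10 and the build mm9 are named per the submitters' processing notes; the sources used here do not give the counting program, annotation, strand setting or treatment of multi-mapped reads. Of 21761 genes, 146 had no symbol match (0.0645% of counts). The labels call the 3 libraries per genotype biological replicates.

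Counts were tested with edgeR 4.0.16 (quasi-likelihood F test, TMM, filterByExpr, default settings) in R 4.3.3, with Benjamini-Hochberg adjustment over 12807 genes. Standard errors were taken as |log2 fold change| over √F. DESeq2 1.42.0, limma-voom (limma 3.58.1), other scalings and filters, thinning to 25749898 counts, removal of a length and GC trend, a replicate block and leaving out each library were alternatives. The fit was tested on simulated data. For a simulated log2 fold change of size 1, it recovered 18.1% of 94 tested genes. For size 3, recovery was 76.8% of 99 tested genes. The fit made 100 calls there, and 7 of them fell on unchanged genes. A member that did not pass the adjusted threshold may therefore still differ. Levels per kilobase used the longest coding transcript of GENCODE M21, and near-identical copies were found with BLAST 2.17.0. Shares were compared with exact permutation tests, two-sided.

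All 35 members could be named. Fold change, SE and adjusted p were given for the 14 of lowest p, with values per library except for Pgam1 and Pgd. Some of the others, such as Ldhb and Hk2, were given as fully, and the rest in shorter form. Of the other pathway genes, the rule named the 3 of lowest p; Dlat, Pgp and Pklr were named after their values were seen. The members and lists were chosen with earlier results of these data known.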

Additional observations from a re-analysis of the deposited data

How the results depend on the processing

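Over all genes, 27 passed an adjusted p of 0.05 in edgeR. The count was 16 with total counts and no TMM, 58 with a stricter filter on low counts, 694 with DESeq2, 11 with limma-voom, 49 with edgeR's newer dispersion method, 13 with the length and GC trend removed and 231 at an adjusted p under 0.1. Leaving out 1 library gave 0 to 2. Of the 35 members, 0 passed in edgeR, 2 (Gapdh and Pkm) with the stricter filter and with the newer dispersion method, 9 with DESeq2 and 5 at an adjusted p under 0.1, and 0 in each of the 6 fits without 1 library. Background rates for these rules were 0.327% (stricter filter), 0.281% (newer dispersion method) and 1.08% (adjusted p under 0.1) of tested genes lower. The members' median moved from −0.336 to −0.241 without TMM, where the median of all genes moved from 0.03 to 0.12, and lay between −0.388 and −0.267 without 1 library. The difference in the Eno1 share was −6.70 points per kilobase and −8.95 points from raw counts. The 14 members of lowest p kept their sign in 18 of 18 alternatives, all fitted to the same libraries that gave those p. Among the other members some kept theirs less often, as Ldhb (14 of 18), Slc2a3 (15 of 18) and Tpi1 (16 of 18). Others, such as Pfkp and Pdhb, kept theirs in 18 of 18. The cause of these shifts was not tested.

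With the replicate number as a block 4 genes passed, and 0 with the block and the trend removed. No label says that the numbers pair the libraries. Same-numbered libraries, taken as deviations from their group means, correlated at 0.0149, 0.0310 and −0.00831. With 3 libraries per group this cannot show whether animals were paired. Amplified reads from 200 cells limit low genes such as Eno2 and Slc16a3 most.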
